A study of Homo sapiens with 8 samples.

Results

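The baseline transcriptome of WT H9 cells was described from the 2 RNA-seq libraries of untreated cells, called WT replicate 1 and WT replicate 2, which are 2 of the 8 libraries of the series. Both libraries were chosen by their titles, and all 57773 gene rows of their count files were used. H9 is an established human embryonic stem cell (hESC) line. The study asked how the chromatin remodeler CHD7 and RNA from HERVH, a family of endogenous retroviruses, act in these cells, and the WT pair served as the control of each comparison. The 4 conditions, each with 2 libraries, were untreated WT cells with the genotype given as wild type (CHD7-HA), untreated CHD7 -/- cells (CHD7 knockout), wild type (CHD7-HA) cells harvested 24 h after LNA-GapmeRs were added (HERVH knockdown), and untreated cells in which an HERVH element on Chr2 was deleted (HERVH element deleted). CHD7-HA is endogenous CHD7 with an HA tag at its C terminus, so the WT baseline is that of an edited line and not of parental H9 cells. Edited lines were grown from picked colonies in mTeSR1 medium. A treatment text shared by all 8 labels also names 4-thiouridine, a label for new RNA, without saying which cells received it. Nothing in the labels says that replicates came from separate cultures, so each p-value measures only the spread between these libraries.

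Embryonic stem cells divide without differentiating and can form the cell types of the embryo. Primed human cells hold this state through a network of transcription factors around POU5F1 and SOX2, through FGF and activin signals, and through RNA-binding proteins such as LIN28A. They also transcribe many HERVH copies, and the genes of differentiated lineages are held inactive by Polycomb complexes and DNA methylation.

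The 2 WT libraries held 21712057 and 21220807 reads counted on genes, against 14802049 to 23156445 over all 8 libraries. Of the reads assigned to a gene, to several or to none, 35.9% in WT replicate 1 and 37.5% in replicate 2 fell on no annotated gene, and 4.49% in each were ambiguous. At this depth 3 counts, taken as the floor, corresponded to 0.139 and 0.140 CPM, the counts-per-million scale that sets each library to the same total. CHD7 itself was at 651 and 650 CPM in the WT libraries, at 197 and 197 CPM in the CHD7 knockout libraries and between 514 and 711 CPM in the other 4. The HERVH knockdown pair stood apart from the other pairs, with 590 of 10904 well-expressed genes more than 2-fold apart between its replicates. Calls between the WT libraries, and between WT and the mean of the other conditions, are therefore given below with and without it. In comparisons of single conditions with WT, libraries were left out only singly.

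All 4 genes used to mark the cells were abundant in both WT libraries. LIN28A, which blocks maturation of let-7 microRNAs, had 45423 and 46310 counts, and POU5F1 had 23342 and 20031. SOX2 had 5145 and 4463 counts. ESRG, a long non-coding RNA transcribed from an HERVH copy, had 10133 counts in replicate 1 and 7197 in replicate 2. On the transcripts-per-million scale (TPM), which also divides by gene length, LIN28A was at 2111 ± 16.0, POU5F1 at 1383 ± 158 and ESRG at 505 ± 124 (SD, n = 2). Each library thus carried the 4 markers of its labelled cell type.

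The miR-302 cluster, a group of microRNAs known for high levels in hESCs, lies on the minus strand of chromosome 4 within LARP7, which is read from the other strand. Its mature microRNAs are shown because they share the seed that sets their targets. The sequences are from RefSeq (GRCh38.p14), with bases 2 to 8, the seed, in capitals.
hsa-miR-302a-3p: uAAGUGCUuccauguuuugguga
hsa-miR-302b-3p: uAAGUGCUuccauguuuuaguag
hsa-miR-302c-3p: uAAGUGCUuccauguuucagugg
hsa-miR-302d-3p: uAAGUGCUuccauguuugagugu
hsa-miR-367-3p: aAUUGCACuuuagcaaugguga
The 4 miR-302 members carry the same seed and miR-367 carries another. Reads on the hairpin MIR302A (hg19, chr4:113569339-113569407) came to 9.97 and 10.9 CPM, those on MIR302C to 4.06 and 3.55 CPM, and those on MIR302D to 1.99 and 1.12 CPM. MIR367 had 5 and 4 counts, and the host transcript MIR302CHG had 5.17 and 4.82 CPM. These libraries were made from long RNA after rRNA depletion, so the counts reflect primary transcripts over the hairpins and do not measure mature microRNAs. LARP7, an RNA-binding protein that stabilises 7SK RNA, was at 90.6 and 73.4 CPM. The strand setting of the counting is not stated, so reads of LARP7 and of the cluster on the opposite strand cannot be told apart.

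A gene was called detected with at least 10 counts in both WT libraries, and silent with at most 3 counts in both. By this rule 20241 of 57773 genes (35%) were detected and 28700 were silent, of which 20598 had no read in either library. Protein-coding genes made up most of the reads, with 93.0% in replicate 1 and 92.6% in replicate 2, and 14182 of 19404 (73.1%) were detected. Among long non-coding genes 2861 of 13037 (21.9%) were detected, and they held 2.86% and 2.85% of reads. Pseudogenes (2158 of 14205 detected) can take reads from their near-identical parent genes, so their counts are uncertain. Smaller classes were detected more rarely, with 147 of 1457 snoRNA, 69 of 1912 snRNA and 102 of 3043 miRNA genes. A minimum of 4 counts gave 24842 detected genes and a minimum of 1 TPM gave 22618.

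**Figure D1:**
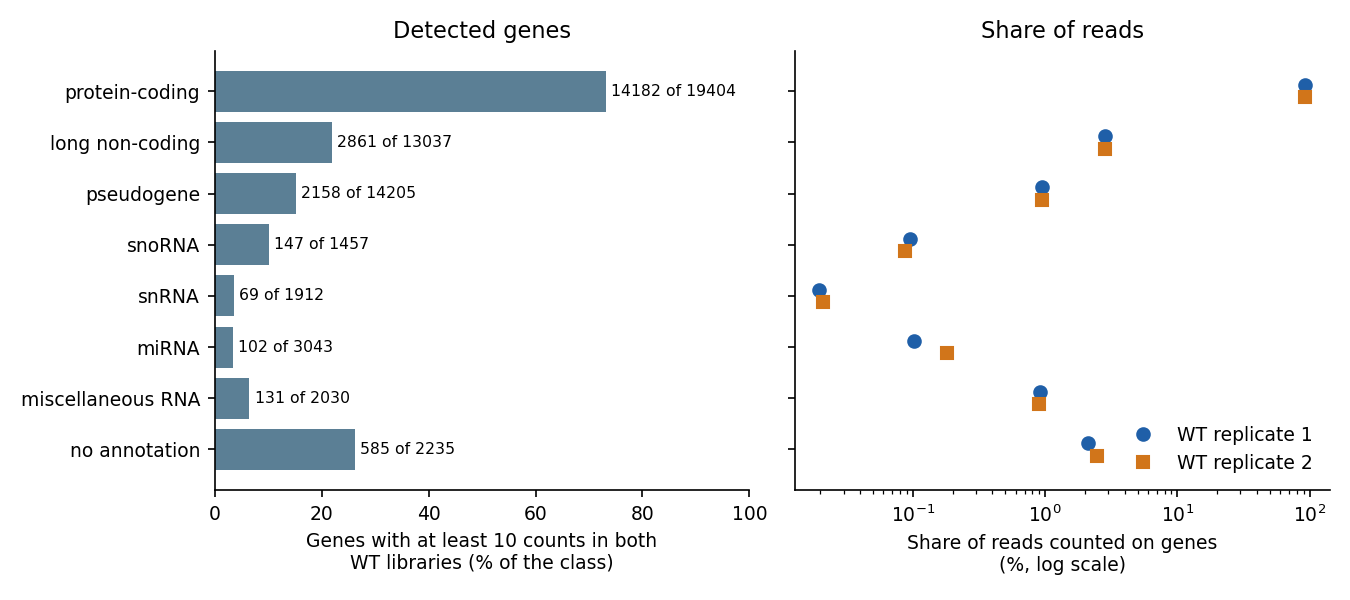
Detected genes by class in WT H9 cells. The left panel gives the percent of each class with at least 10 counts in both WT libraries, with the number of genes beside each bar, and the right panel gives the percent of reads on genes that each class took in replicate 1 (circles) and replicate 2 (squares) on a log axis. Protein-coding genes led both panels, at 73.1% detected, and the miRNA class took 0.103% of reads in replicate 1 and 0.181% in replicate 2. Most reads of the miRNA class lay on MIR3687 and MIR3648, both higher in replicate 2, so the rise does not describe the class.

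Expression was spread over many genes. The 10 genes with most reads held 4.88% of counts in replicate 1 and 5.09% in replicate 2, the top 100 held 16.1% and 15.8%, and the top 1000 held 47.4% and 46.6%. The median detected coding gene stood at 18.4 TPM in replicate 1 and 18.2 TPM in replicate 2. In replicate 1, 55 coding genes reached 1000 TPM and a further 1343 lay between 100 and 1000 TPM, against 48 and 1301 in replicate 2.

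The most abundant coding genes per length were those of protein folding, translation, the cytoskeleton and chromatin. HSP90AB1, a cytosolic chaperone, led with 80888 and 68705 counts, or 4989 and 4201 TPM. Next came EEF1A1, which brings aminoacyl-tRNA to the ribosome, with 4298 and 3681 TPM, and EEF2, which moves the ribosome along, with 3347 and 3101 TPM. Both had more reads in replicate 1, as did HSP90AB1. ACTB, encoding beta-actin, followed at 3065 and 3136 TPM, and ACTG1 was at 1840 and 2157 TPM. HMGA1, an architectural chromatin protein with high levels in embryonic cells, had 3079 and 2731 TPM. The linker histones H1-5 (2091 and 1890 TPM) and H1-2 (2258 and 1638 TPM) and the core histone H4C3 (2103 and 1720 TPM) were also among the 15 highest. Their transcripts end without a poly(A) tail and are retained when rRNA is depleted instead of poly(A) RNA being selected. GAPDH, FTL, RPS2 and TMSB10 were also among the 15, as was LIN28A, the sole pluripotency regulator of the 15, at rank 9. The ranking depended on the length used: ranked by CPM, without length, 6 of the 15 genes remained, and with the length of the canonical transcript, an alternative added after the data were seen, 8 remained. LIN28A was among the 15 by CPM but not with the canonical length.

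Among long non-coding genes, a gene without a symbol in the annotation used (ENSG00000259001, chr14:20811207-20811844, minus strand) had 73657 and 86945 counts. MIR663AHG had 128656 and 129578 counts, so it held the most reads of the class. MALAT1, a nuclear RNA of speckles, had 71618 counts (1262 TPM) in replicate 1 and 43180 (754 TPM) in replicate 2. Of the 10 highest, 3 genes, an entry named SNORD64, ENSG00000261069 and RP11-701H24.7, lie on chromosome 15 between positions 25230011 and 25334043, the imprinted region that holds the SNORD116 genes. ESRG and LINC00678, with 3008 and 2488 counts, were also among the 10, and both overlap HERVH copies. Of the 10 genes, 5 remained when ranked by CPM.

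RNAs made by RNA polymerase III led the miscellaneous RNA class. RN7SK, which holds the elongation factor P-TEFb inactive, had 111045 and 97548 counts, and RN7SL2, the RNA of the signal recognition particle, had 68630 and 76056. A gene row with as many reads has no entry in the annotation used (ENSG00000258486, with 114740 and 145929 counts). RPPH1 and RN7SL1, also sought among abundant non-coding RNAs, matched no symbol, and whether rows without a symbol hold them was not settled. SNORD108 had 770 and 949 counts and SNORD116-19 had 617 and 642, while SNORD3A, the U3 snoRNA of rRNA processing, had 5745 and 3449. The microRNA entries MIR3687 (6813 and 14972 counts) and MIR3648 (9462 and 16683 counts) lie side by side on chromosome 21 and were higher in replicate 2. Levels per length of such genes are inflated, since MIR3687 spans 61 bases and a longer transcript across it is counted there. All 37 mitochondrially encoded genes were listed at 0 in both libraries, as was KMT2B among the nuclear genes. Their levels could therefore not be read from these files.

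The pluripotency list held 33 matched genes, and 32 of them were detected, with a median of 175 TPM. After LIN28A and POU5F1 the highest were SFRP2, a secreted WNT regulator (1240.0 and 999.7 TPM), PODXL, a sialomucin of the cell surface (934 and 883 TPM), and TDGF1, the Nodal co-receptor (754 and 732 TPM). DNMT3B, the de novo DNA methyltransferase, had 600 TPM in replicate 1 and 739 TPM in replicate 2, and L1TD1, an RNA-binding protein, had 688 and 576 TPM. NANOG was well below these at 1650 and 1698 counts. LINC-ROR, with 8 and 4 counts, was the sole member of the list under 10 counts.

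All 10 CHD remodelers were detected. CHD4, the motor of the NuRD complex, was highest at 200 and 193 TPM, and CHD7 was second at 137 and 134 TPM. CHD1L, CHD1 and CHD8 followed, between 69.1 and 92.3 TPM. CHD5, known mainly from neurons, was lowest with 90 and 101 counts. Of 25 SWI/SNF genes 23 were detected, led by SMARCC1 (341 and 301 TPM), SMARCD1 (151 and 160 TPM) and the ATPase SMARCA4 (143 and 142 TPM), and the lowest was DPF3 with 10 and 1 counts. Each of the 30 matched Polycomb genes was detected. PHC1, a subunit of PRC1, had 643 and 524 TPM and JARID2, a cofactor of PRC2, had 430 and 351 TPM.

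In the DNA methylation list 9 of 10 genes were detected, and after DNMT3B came TET1, which oxidises 5-methylcytosine, at 169 and 157 TPM, and DNMT1, the maintenance enzyme, at 94.8 and 98.8 TPM. DNMT3L, a cofactor of DNMT3A and DNMT3B, had 5 and 9 counts. All 13 genes for retroelement silencing were detected, with TRIM28, the corepressor bound by KRAB zinc finger proteins, at 881 and 1027 TPM and the HP1 protein CBX5 at 319 and 326 TPM. Enhancer coactivators were detected at 14 of 15 genes, with EP300, a histone acetyltransferase, at 142 and 137 TPM and the cohesin subunit SMC1A at 115 and 97.6 TPM.

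Signalling genes were described by pathway. In the FGF and ERK list (14 of 16 detected) the ERK-induced phosphatase DUSP6 had 374 and 380 TPM, SPRY4, a feedback inhibitor, 234 and 198 TPM, and the receptor FGFR1 147 and 156 TPM. The ligand FGF2 had 55.9 and 52.8 TPM and FGF4 had 3 and 4 counts. In the Nodal, activin and BMP list 23 of 25 genes were detected, headed by TDGF1. ID3, a target of BMP signals, had 207 and 252 TPM and the receptor ACVR2B 113 and 112 TPM, whereas the antagonist CER1 had 7 and 4 counts. The WNT list (24 of 29 detected) was led by the secreted antagonists SFRP2 and SFRP1 (1004 and 978 TPM), the receptor FZD7 (408 and 440 TPM) and CTNNB1, encoding beta-catenin (247 and 260 TPM). LGR5, a WNT target and receptor of R-spondins, had 5 and 3 counts. Among imprinted genes 16 of 23 were detected, with PEG10 (237 and 216 TPM), MEST (148 and 161 TPM) and GNAS (142 and 125 TPM) highest and ZIM2 listed at 0.

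Of 141 matched markers in 10 lists of other lineages and states, 87 were silent. The HOX genes, which give body segments their identity, accounted for 39 of these, since all 39 were silent and none had more than 2 counts in a library. Among 15 neural genes 9 were silent, and PAX6, a regulator of forebrain and eye, had 38 and 36 counts. Of 16 mesoderm genes 6 were silent, and TBXT, the regulator of early mesoderm, had 4 and 3 counts. Of 13 endoderm genes 7 were silent, including SOX17 with 1 and 0 counts. In the naive and 8-cell list 10 of 18 genes were silent, and the highest by TPM was TFAP2C at 141 and 89 counts, while SUSD2 had the most reads in a library, with 120 and 149 counts.

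Some lineage markers had clear levels in both libraries. KDR, the VEGF receptor of endothelial progenitors, had 3940 and 2877 counts (114 and 82.7 TPM), and it alone held most reads of the mesoderm list. COL1A2 (2706 and 2413 counts), COL1A1 (1811 and 1443) and PDGFRB (527 and 500) were detected, but the fibroblast genes COL3A1 (2 and 0), DCN (2 and 0) and LUM (0 and 0) were at or near 0. The summed counts of the 8 fibroblast genes were 5103 and 4432. FOXA3, an endoderm factor, had 266 and 326 counts, SOX10, a neural crest factor, had 120 and 132, and DAZL, a germ cell RNA-binding protein, had 146 and 92. Of the trophoblast and amnion list 4 of 11 genes were silent, and KRT7 had 139 and 152 counts. The blood markers did not pass 14 counts in either library. In bulk RNA, a low level in all cells and a high level in few cells cannot be told apart.

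**Figure D2:**
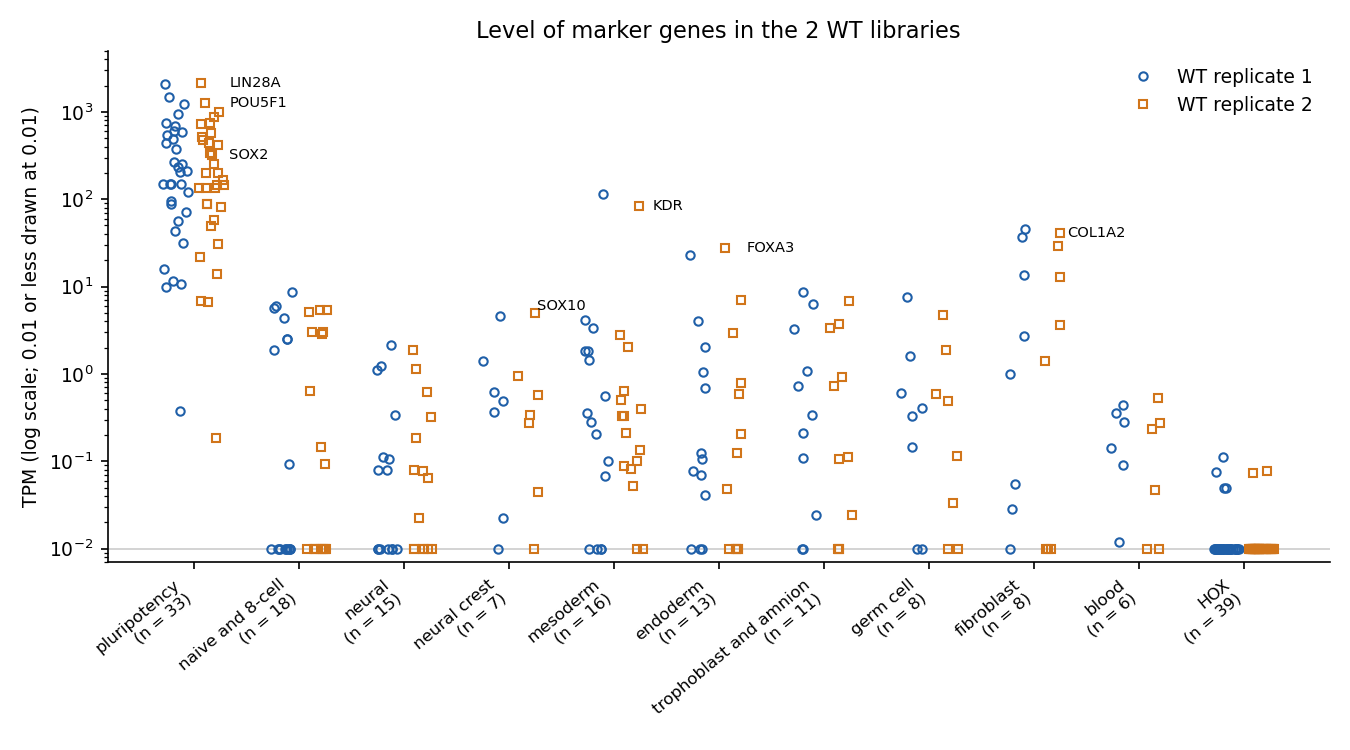
Levels of marker genes in WT H9 cells. Each point is 1 gene of a list in replicate 1 (circles) or replicate 2 (squares), with TPM on a log axis and values of 0.01 or less drawn at 0.01. The pluripotency genes have a median of 175 TPM, the HOX genes sit at or near the bottom, and KDR, FOXA3 and COL1A2 stand out of their lists.

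The WT pair was next compared with itself, since any difference between its libraries enters each comparison that uses both as control. The 2 files were not copies of 1 library: over 21549 genes with at least 20 counts in the pair, the chi-square statistic per gene averaged 14.2, where counting noise alone gives about 1. Across 10904 genes with a mean log2 CPM above 3, the median SD between the WT libraries was 0.118 on the log2 scale. The value was 0.103 for the CHD7 knockout pair, 0.0757 for the HERVH element deleted pair and 0.246 for the HERVH knockdown pair. Of these genes 31 (0.284%) differed by more than 2-fold between the WT libraries, against 5, 5 and 590 in the other pairs. The order depended on the minimum level: above a mean log2 CPM of 1, with 14935 genes, the counts were 159 for WT, 175 for CHD7 knockout, 65 for HERVH element deleted and 1262 for HERVH knockdown. The 31 comprised 15 genes higher in replicate 2, of which 11 were protein-coding, and 16 lower, of which 8 were protein-coding.

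With the spread taken from the other 3 pairs, edgeR's quasi-likelihood test called 0 of 23474 genes (0%) different between the WT libraries at a Benjamini-Hochberg FDR below 0.01 and a 2-fold change, and the lowest FDR was 0.998. At an unadjusted p below 0.05 it counted 457 genes (1.95% of those tested), 226 higher and 231 lower in replicate 2. DESeq2 called 0, with 297 genes (1.27%) below that p. Both shares lay under what that p limit gives on average when no gene differs. The edgeR test compares 2 libraries and assumes that each varies like the other pairs. With the HERVH knockdown libraries left out, 5 genes were called by edgeR, 4 lower and 1 higher in replicate 2. Among them, SCARNA7 fell by 1.59 on the log2 scale in replicate 2 (FDR 0.000914), MIR205HG by 1.24 (FDR 0.00980) and CDKN1A by 1.17 (FDR 0.00980), while EME2 was higher by 1.25 (FDR 0.00192).

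The genes with the smallest p in the full fit, none of them called, showed how far the 2 libraries lay apart. EME2, a subunit of a structure-specific endonuclease, had 350 counts in replicate 1 and 824 in replicate 2. FOXA2, a pioneer factor of endoderm, had 30 and 106 counts, a log2 difference of 1.83 (SE 0.50). CLN6, a protein of the endoplasmic reticulum, had 777 and 1341 counts and SRPK3 had 8 and 41. In the other direction, SCARNA7, which guides modification of spliceosomal RNA, had 522 counts in replicate 1 and 171 in replicate 2, and MIR205HG had 1100 and 460. EDNRB, the endothelin receptor, had 796 and 369 counts, ABHD12B had 219 and 72, and HMGB2, a chromatin protein of dividing cells, had 3509 and 1974. The pseudogenes RPL5P34 (151 and 44), RPL6P10 (534 and 256), MTND5P11 (285 and 119) and MTND1P23 (180 and 65) were lower too, with the caution given above for pseudogenes. MALAT1, the gene with most reads among these, had a log2 difference of -0.71 (SE 0.20).

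**Figure D3:**
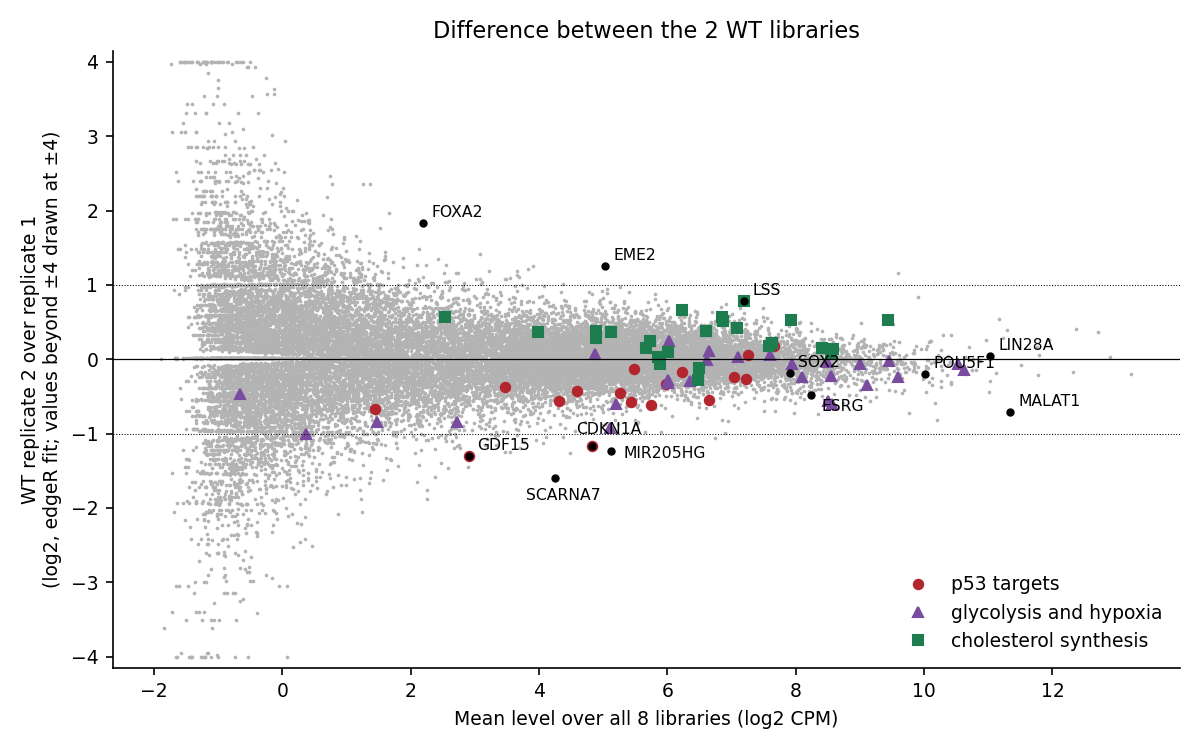
Difference between the 2 WT libraries by expression level. Each grey point is 1 of the genes tested, with the mean log2 CPM over all 8 libraries on the x axis and the log2 ratio of WT replicate 2 to replicate 1 on the y axis, and the dotted lines mark 2-fold. Most p53 targets (circles) and glycolysis and hypoxia genes (triangles) lie below 0 and most cholesterol synthesis genes (squares) above, while LIN28A, POU5F1 and SOX2 lie within 2-fold.

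Gene lists were then described by the direction of their members, with no member called in any list (0% of all genes tested were called). The lists were chosen with earlier results of these data known, so the shared directions are a description and not a test. Over all genes tested, the median log2 ratio of replicate 2 to replicate 1 was 0.02, and 47.7% of genes were lower in replicate 2. Of 17 p53 targets 15 were lower in replicate 2, with a median of -0.43. CDKN1A, the cell cycle inhibitor p21, had 1031 counts in replicate 1 and 452 in replicate 2, and GDF15, a secreted stress factor, had 277 and 111. RRM2B, which supplies nucleotides for DNA repair, had 3058 and 2069, and PMAIP1, a trigger of apoptosis, had 1746 and 1128.

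Genes of glycolysis and hypoxia were lower in replicate 2 for 22 of 27, with a median of -0.24. The largest levels hardly differed, as GAPDH had 33942 and 32037 counts, whereas PGK1 (10658 and 7159), LDHA (10170 and 6628) and BNIP3, a mitophagy receptor (1179 and 611), were further apart. Of 27 immediate early genes 19 were lower, with a median of -0.22. Of the Fos and Jun genes, FOS (1594 and 1039), FOSB (838 and 463), FOSL1 (341 and 166) and JUN (477 and 249) had fewer counts in replicate 2, JUND (1768 and 1500) was closer, and FOSL2 (239 and 268) and JUNB (98 and 99) were not lower. Fewer counts in replicate 2 were also found for EGR1 (1341 and 693) and BTG2 (498 and 254). Both SRF (1911 and 2472) and IER2 (863 and 986) had more.

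Interferon-related genes were lower for 15 of 19 (median -0.23), with IFITM3 at 4134 and 2732 counts and IFITM1 at 1556 and 841, and genes of the integrated stress response for 14 of 20 (median -0.20), with ASNS at 5171 and 3554. All 6 metallothionein genes tested were lower, with a median of -1.40, but the counts were small. MT2A had 109 and 53 counts, MT1E 83 and 29, MT1G 46 and 14, and MT1M, with 3 and 0, was at the floor. Ribosomal protein genes were lower for 60 of 82 (median -0.15), among them RPL11 with 10402 and 6584 counts, while RPLP0 had 40956 and 40485.

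Cholesterol synthesis genes lay the other way, as 22 of 25 were higher in replicate 2, with a median of 0.29. LSS, lanosterol synthase, had 1767 and 2994 counts, HMGCS1 3281 and 4692, and ACAT2 1536 and 2252. YAP and SRF targets had a median of 0.19, with 15 of 22 higher. The Nodal genes LEFTY1 (10 and 51 counts) and NODAL (24 and 44) and the inhibitor SMAD7 (388 and 711), picked after their values were seen, had more counts in replicate 2, although their list as a whole had a median of 0.06.

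Pluripotency genes showed little shift, with 20 of 33 lower and a median of -0.05, and cell cycle genes had a median of 0.07. Long non-coding genes that overlap an HERVH copy, a list added after the data were seen, were lower in replicate 2 for 64 of 99, with a median of -0.24 against 0.08 over all long non-coding genes tested. ESRG (log2 difference -0.48, SE 0.23, unadjusted p = 0.0656 by edgeR), LINC00458 (763 and 344 counts), LINC01356 (550 and 251) and ENSG00000197462 (1770 and 953) had fewer counts in replicate 2. The last 3 lay outside the rule for named genes and were picked after their values were seen.

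**Figure D4:**
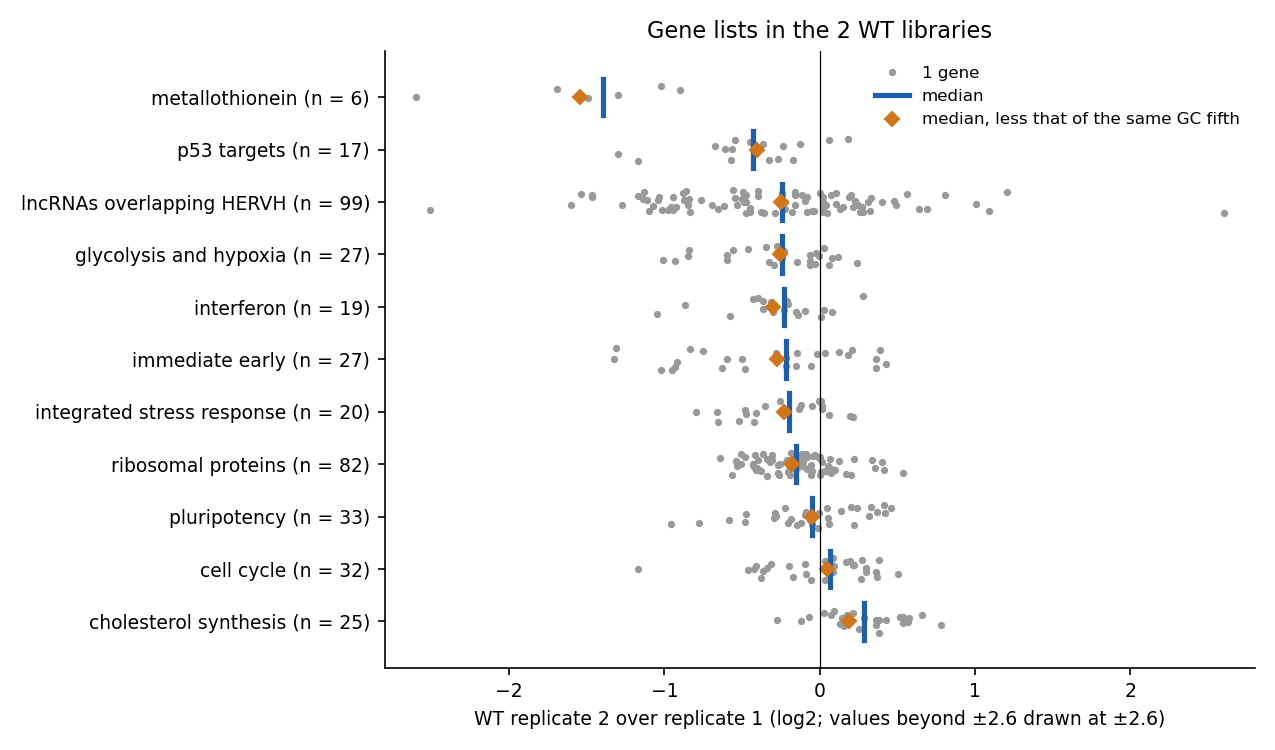
Gene lists in the 2 WT libraries. Each grey point is 1 gene at its log2 ratio of WT replicate 2 to replicate 1, blue bars are list medians, and diamonds are medians after the median of coding genes of like GC content was subtracted. The medians run from -1.40 for metallothionein genes to 0.29 for cholesterol synthesis genes, and the diamonds keep the side of each list shown.

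The WT difference moved with the GC content of genes. Across 10331 well-expressed coding genes of the 2 libraries, the log2 ratio had a Spearman correlation of 0.480 with exonic GC content, given as a description since all points share the same library pair. When these genes were put into 5 equal groups by GC content, the median ratio ran from -0.14 in the group with a median GC of 38.4% to 0.20 in the group at 60.8%. The HERVH knockdown pair ran from -0.37 to 0.66 over the same groups, the HERVH element deleted pair from -0.08 to 0.09, and the CHD7 knockout pair from -0.03 to -0.12. The Spearman correlation was -0.206 with genomic span, introns included, -0.0455 with exonic length and -0.0229 with level. Over 5 equal groups by span, the median ratio ran from 0.09 in the shortest genes to -0.06 in the longest. By chromosome, the medians were highest on 22 (0.13), 16 (0.13) and 19 (0.11) and lowest on 18 (-0.10), 4 (-0.09) and 13 (-0.09).

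After the median of coding genes of like GC content was subtracted, an alternative added after the data were seen, the median was -0.40 for p53 targets, -0.26 for glycolysis and hypoxia, -0.30 for interferon-related and -0.27 for immediate early genes. It was -0.25 for long non-coding genes over HERVH, -0.18 for ribosomal protein genes and -1.54 for metallothionein genes. For cholesterol synthesis it was 0.19, with 24 of 25 genes higher, against 0.29 before, and for YAP and SRF targets it was 0.10, with 13 of 22 higher, against 0.19 before. Those 2 medians moved towards 0, as did that of p53 targets, from -0.43, and all medians named here kept their direction. The part of GC content in the differences of single genes was not tested.

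**Figure D5:**
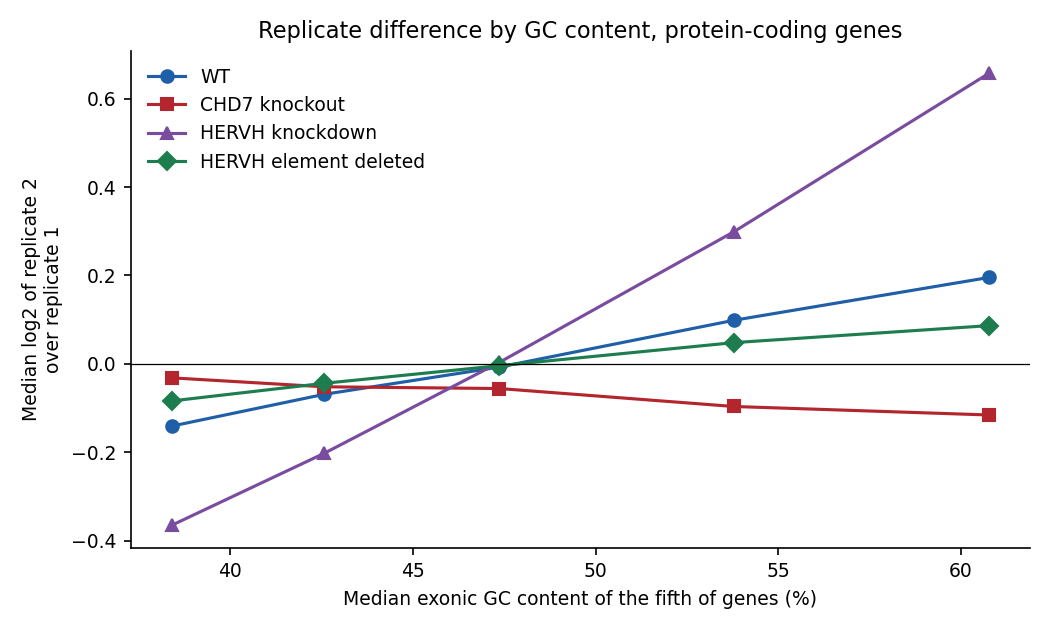
Replicate difference against GC content. The x axis gives the median exonic GC content (%) of 5 equal groups of coding genes and the y axis the median log2 ratio of replicate 2 to replicate 1 for each of the 4 conditions. The WT line runs from -0.14 to 0.20, between the steeper HERVH knockdown line and the flatter HERVH element deleted line, and the CHD7 knockout line slopes downward.

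To ask where the WT baseline stood apart from the rest of the series, WT was compared with the equal-weight mean of the other 3 conditions. By edgeR's quasi-likelihood test 5 of 23474 genes (0.0213%) were called, all higher in WT, and at FDR 0.05 and 2-fold the count was 22 (0.0937%). LINC02751, a long non-coding RNA on chromosome 11, was the sole called gene for which both WT libraries lay above all 6 others. It was at 15.6 and 13.3 CPM in WT, 0.786 and 0.968 CPM in CHD7 knockout, 5.04 and 3.93 CPM in HERVH knockdown and 12.7 and 12.3 CPM in HERVH element deleted cells, a log2 difference of 1.97 (SE 0.19, FDR 0.000869). The gap to the HERVH element deleted cells was thus small.

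The other 4 called genes were high in WT but not above each other library. H1-1, a linker histone, was at 81.0 and 84.4 CPM in WT, at 1.43 and 1.18 CPM in CHD7 knockout and between 63.1 and 92.1 CPM in the remaining libraries (log2 difference 2.09, FDR 5.02e-05). TEK, the angiopoietin receptor, was at 26.3 and 27.5 CPM in WT, at 2.73 and 2.58 CPM in CHD7 knockout and between 20.6 and 30.5 CPM elsewhere (FDR 0.00598). For both genes the difference was carried by the CHD7 knockout pair. LINC00654 was at 6.0 and 7.02 CPM in WT but had 3 and 3 counts in HERVH element deleted cells. It was at 3.70 and 3.28 CPM in CHD7 knockout and at 6.41 and 5.68 CPM in HERVH knockdown. ENSG00000260834 was at 21.3 and 15.3 CPM in WT and at 1.62 and 0.971 CPM in HERVH element deleted cells. In HERVH knockdown it was at 7.99 and 5.54 CPM, and in CHD7 knockout at 18.2 and 20.3 CPM. H1-1 was called with each library left out in turn, and it was the sole call without either WT library. With the HERVH knockdown libraries left out, the count was 32 higher and 21 lower, and all 5 genes remained.

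The comparisons with WT were also run with each WT library alone as the control. CHD7 knockout cells differed from WT at 134 genes (0.571%) with both WT libraries, of which 79 (0.337%) were higher and 55 (0.234%) lower. The count was 41 with replicate 1 alone and 34 with replicate 2 alone, of which 27 were shared (65.9% and 79.4% of the calls). HERVH knockdown cells differed at 51 genes (0.217%) with both, of which 19 (0.0809%) were higher and 32 (0.136%) lower. The count was 16 with replicate 1 alone and 2 with replicate 2 alone, and at FDR 0.05 it was 350 (1.49%) with both, 229 and 2. HERVH element deleted cells differed at 7 genes (0.0298%) with both, and at the same 5 genes with either library alone. At FDR 0.05 they differed at 17 genes (0.0724%) with both. All of these fits included both HERVH knockdown libraries. In the fits with a lone control library, that library is assumed to vary like the other groups, and the 2 fits share the treated libraries. Leaving out a control library also removes a replicate, so lower counts than with both do not measure the choice of control alone.

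For single genes, the gap between the ratios to each control library is the WT difference itself, so these values are a description of its size. For CDKN1A, the log2 ratio of mean CPM in CHD7 knockout cells to WT was -1.65 against replicate 1 and -0.48 against replicate 2, and in HERVH knockdown cells it was -0.02 and 1.15. FOXA2 in HERVH element deleted cells was at 1.64 against replicate 1 and -0.13 against replicate 2, and ESRG was at -0.39 and 0.09. EDNRB in CHD7 knockout cells was at -1.54 and -0.45. LIN28A in CHD7 knockout cells, in contrast, differed little with the control, at -0.02 and -0.07.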

How the data were processed

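RNA was extracted from H9 cells in 4 conditions with 2 libraries each, rRNA was depleted, and strand-specific libraries were sequenced. Mapping by the authors used STAR with hg19 and Ensembl GRCh37.75 gene models, and HTSeq-count gave the counts. Tool versions and the strand setting are not given in the sources used here. The deposited values are unnormalized whole-number read counts for 57773 genes, of which 55538 (96.1%) matched a GRCh37 annotation (release v44lift37) for symbol, class and length. The 5 HTSeq summary rows were left out.

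Counts were scaled by TMM to CPM, and TPM was computed from exonic union length, so levels of different genes were compared in TPM. A gene was tested if it passed edgeR's default expression filter by condition (23474 genes). For the WT pair, edgeR's quasi-likelihood test treated each WT library as a group of its own beside the 6 other libraries (3 residual degrees of freedom). WT was compared with the other conditions in a fit with 4 groups and 4 residual degrees of freedom. Calls needed a Benjamini-Hochberg FDR below 0.01 and a 2-fold change over all genes tested. The SD between replicates was taken on log2 CPM with a prior count of 2. The tests were tried on simulated counts, with changed genes drawn only above a minimum mean CPM. Each simulated gene had the same spread in all 8 libraries. The real HERVH knockdown pair lay further apart, with a median SD of 0.246 against 0.118 for WT. For the WT pair, 11 of 100 genes changed 2-fold and 87 of 100 changed 4-fold were recovered, with 4 false calls among 22752 genes. In this simulation 2-fold differences were thus mostly out of reach, in part because a call needed an estimated 2-fold change. Recovery of genes at lower levels, or with the real spread of the HERVH knockdown pair, was not measured.

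The text names the 4 markers, the most abundant genes of each class, the highest members of each list and, for regulators, the lowest, the called genes, and for the WT pair the 10 genes with the smallest p in each direction. Further members named for the WT pair were chosen after their values were seen. The members and gene lists were chosen with earlier results of these data known. HERVH copies (1225 positions) came from the study's supplementary list. Y-linked genes and XIST are not reported. A few other genes that the naming rule covers are not reported here. Alternatives were RLE scaling, other expression filters, DESeq2, a replicate block, FDR 0.05, other detection limits and lengths, an offset by GC content and each library left out. Tests ran in edgeR 4.0.16 and DESeq2 1.42.0 under R 4.3.3, and tables and plots were made in Python 3.11.15 with scipy 1.17.1, pandas 2.3.3, numpy 2.4.6 and matplotlib 3.10.9. Depth was 14802049 to 23156445 reads per library, and a count of 3 was the floor for counting error alone.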

Additional observations from a re-analysis of the deposited data

How the results depend on the processing

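Counts of called genes moved with the libraries, the expression filter and the tool. With both HERVH knockdown libraries left out, 1 gene was called higher and 4 lower in WT replicate 2 than in replicate 1, and 32 genes higher and 21 lower in WT than in the other conditions. With single libraries left out, the WT pair gave 0 to 1 gene higher and 0 to 5 lower, the 1 and 5 without HERVH knockdown replicate 1, and WT against the other conditions 1 to 59 higher and 0 to 13 lower, the 59 and 13 without HERVH knockdown replicate 2. In this comparison 1 gene was called without either WT library or CHD7 knockout replicate 1, 3 without CHD7 knockout replicate 2 or HERVH element deleted replicate 1, and 19 higher and 9 lower without HERVH knockdown replicate 1. CHD7 knockout against WT gave 16 to 222 higher and 6 to 139 lower, HERVH knockdown against WT 2 to 480 higher and 0 to 393 lower, and HERVH element deleted against WT 0 to 1 higher and 5 to 17 lower. In all 3 the highest counts came without an HERVH knockdown library, and leaving out any other library gave fewer calls. Without an expression filter, WT had 44 genes higher and 15 lower than the other conditions, CHD7 knockout 219 and 149, HERVH knockdown 166 and 340, and HERVH element deleted cells 1 and 29. DESeq2 gave 21 and 12, 175 and 111, 113 and 260, and 14 lower in HERVH element deleted cells, in the same order. FDR 0.05 gave 16 and 6, 184 and 106, 107 and 243, and 17 lower. RLE scaling gave 55 genes lower in HERVH knockdown cells, against 32. Among alternatives for the WT pair, only those without HERVH knockdown libraries made a call. The cause of these shifts was not tested.

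Deviations of the WT libraries correlated with those of same-numbered libraries at 0.513 (HERVH element deleted), 0.353 (HERVH knockdown) and -0.277 (CHD7 knockout) over 10904 genes. The direction thus differed between conditions, and whether same-numbered libraries shared a batch was not tested. A fit with the replicate block gave 8 genes higher in WT than in the other conditions, against 5, with FOSB, GRM3 and AACSP1 added, and moved no other count by more than 1.5 times. With the block, the contrast for the WT pair subtracted a multiple of the shift between replicate numbers fitted from the other conditions. The list medians it gave are therefore not the difference of the WT libraries and do not check the medians above. They were 0.13 for cholesterol synthesis genes, -0.61 for p53 targets, -0.66 for interferon-related genes and -0.72 for the integrated stress response. For ribosomal protein genes the value was -0.38, for metallothionein genes -2.93 and for immediate early genes -0.14. It was -0.04 for YAP and SRF targets, -0.05 for cell cycle genes and 0.02 for pluripotency genes.

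Long non-coding genes detected rose to 4399 with a minimum of 4 counts. Ranked by CPM, 6 of 15 coding and 5 of 10 long non-coding genes remained among the most abundant, and with canonical lengths 8 and 5. With 2 libraries, 2-fold differences between them were mostly below what the test recovered in simulation, and genes at or under 3 counts have no measurable ratio.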
